A study of Sus scrofa with 6 samples.

Results

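The genes described here are the cytosolic translation initiation and elongation factors of pig longissimus muscle, together with the kinases and binding proteins that control them. They were taken from the deposited expression table by name, as every record whose listed gene name began with EIF and a digit between 1 and 6 or with EEF and a digit of 1 or 2. The rule found 50 records of 7661, each with a symbol of its own, and it used no measured value. Longissimus is the long muscle of the back. Its transcripts were measured by RNA sequencing in 3 pigs with high and 3 pigs with low content of intramuscular fat (fat deposited among the muscle fibres), and the comparison of high with low asks which transcripts differ with that trait. The animals carried no stated treatment or allele, and their breed, sex, age and kinship remain not given in the sources used here. The table's coordinates belong to a genome build that is not given in the sources used here. In it the 50 records lay on 15 chromosomes, apart from EIF5 and EIF6 on unplaced scaffolds.

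Translation begins when eIF2, carrying GTP and the initiator methionyl-tRNA, joins eIF1, eIF1A, eIF3 and eIF5 on the small ribosomal subunit. The eIF4 factors bind the mRNA cap and unwind the leader, the loaded subunit scans to the start codon, and eIF5B joins the large subunit. eEF1A then brings each aminoacyl-tRNA to the ribosome, the eEF1B chains recharge eEF1A with GTP, and eEF2 moves the ribosome along the mRNA. Kinases that phosphorylate the alpha chain of eIF2, the binding proteins that hold eIF4E, and eEF2 kinase slow these steps. In skeletal muscle these controls set the rate of protein synthesis in response to feeding, contraction and stress.

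The high libraries held 25371989 to 28874691 reads each and the low libraries 30139025 to 34813172. The 50 records together took 1.11%, 1.18% and 1.11% of the total in high libraries 1 to 3 and 1.10%, 1.20% and 1.26% in low libraries 1 to 3. Every member held between 210 and 62781 reads in each library, and for the records with the fewest reads counting error is part of the spread between libraries. The 11 muscle fibre marker records found had a summed level of 122039 to 132985 CPM in high and 113361 to 134128 CPM in low libraries, where CPM is TMM-normalised reads per 1000000. The 10 adipocyte markers summed to 287 to 473 CPM in high and 167 to 213 CPM in low libraries, and 9 of 10 had a higher mean in high. All 12 fibroblast and matrix marker records, found with a list of 10 genes, had a higher mean in high. Their sums were 3829 to 5104 CPM in high and 1608 to 3313 CPM in low. Every record of the table exceeded a CPM of 10 in 3 or more libraries, so none of these markers could be at 0 throughout. Marker genes under that level are absent from these sums. In bulk muscle, fewer cells of a type and less RNA per cell cannot be told apart, and the part of these cell types in the differences below was not tested. Low library 3 stood apart, since 78 of 82 cytosolic ribosomal protein records had their highest level of the 6 libraries in it, and values are given with and without it where they turn on it.

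None of the 50 factors passed an adjusted p of 0.05 in edgeR's quasi-likelihood test, adjusted over all 7661 records, where 0.144% of the table passed (0.131% higher and 0.0131% lower in high). The same test without adjustment put 2 of 50 below 0.05, against 18.5% of the table. These were EIF2AK3, higher in high as were 10.2% of the table's records, and EIF3I, lower in high as were 8.3%. DESeq2 called 1 member, EIF3I, which was lower in high. It called 6.76% of the table, 4.92% higher and 1.84% lower. limma-voom and edgeR's exact test called 0 members, where they called 8 and 340 of the table's 7661 records. The high and low libraries did not overlap for 8 of 50 members, against 26.8% of the table. EIF4G3 and EIF2AK3 were the 2 higher in high, where 13.5% of the table stood, and EIF3I, EIF3G, EIF2B2, EIF4G1, EIF5B and EIF1 the 6 lower in high, where 13.3% stood. With 3 libraries a group, an exact permutation test of a single record cannot go below p = 0.1.

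The members' log2 fold changes, high minus low, ran from -0.43 to 0.60, and 44 of 50 were smaller than 0.3 in size, as were 5030 of the table's 7661 records. The members' standard errors ran from 0.11 to 0.33 with a median of 0.15, and most of their fold changes were no larger than their own error. The fold change was below 0 for 39 members and above 0 for 11, which puts 78.0% of the members below 0 against 54.8% of the table. Their median was -0.09, against -0.04 over the table. Without low library 3 the split was 22 below and 28 above 0 and the median was 0.00. The table then had 3940 records below and 3721 above 0, with a median of -0.01. For the members as a set, the lean towards lower values in high was thus not seen in the other 5 libraries.

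**Figure D1:**
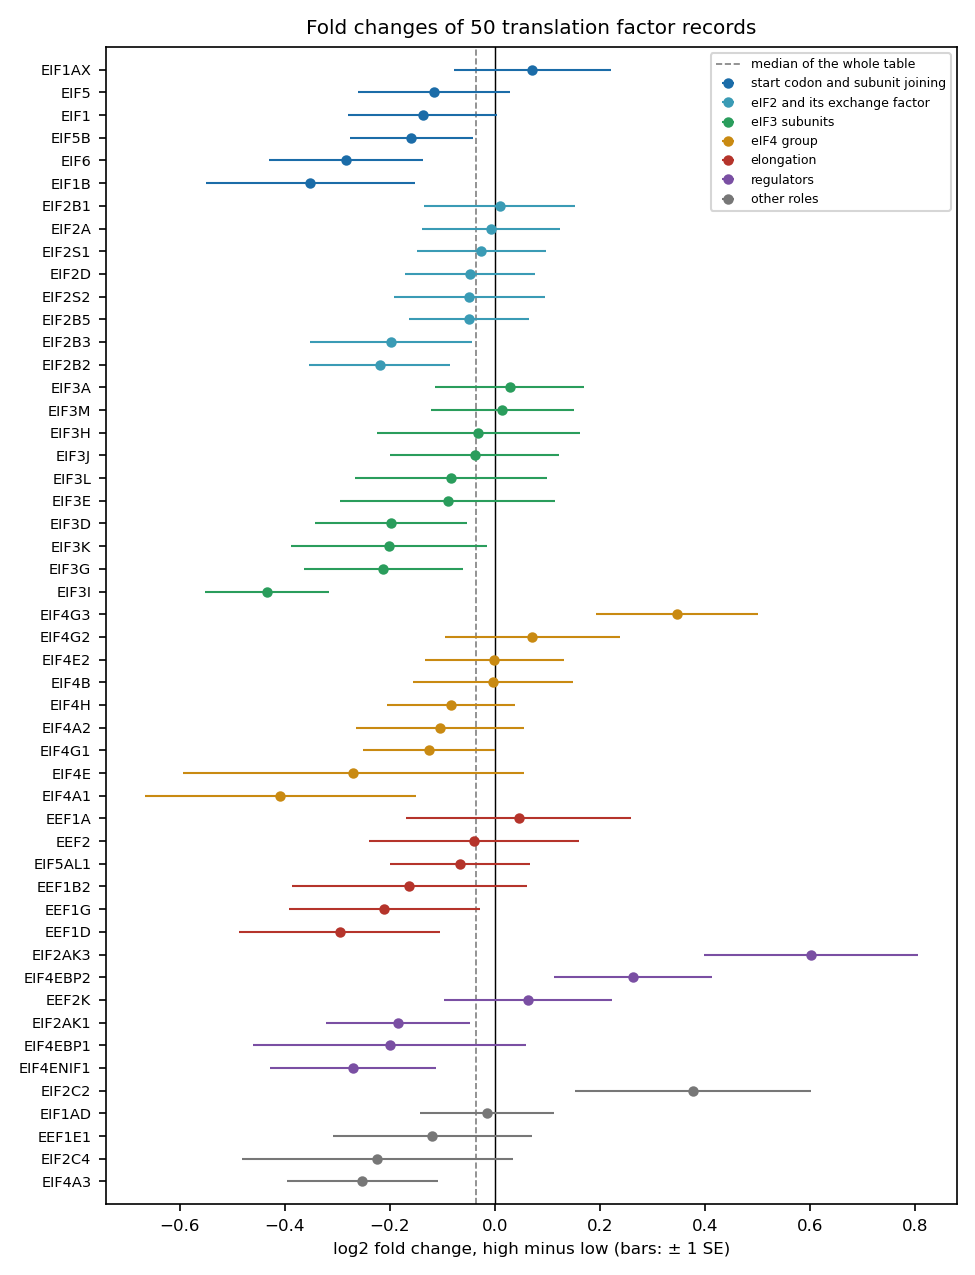
Log2 fold change of each of the 50 records (high minus low, horizontal axis) with bars of ± 1 SE, grouped by role, with the median of the whole table as a dashed line. EIF2AK3 at 0.60 and EIF3I at -0.43 lie at the ends, and 39 of the 50 points lie left of 0.

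Of the 6 factors of start codon choice and subunit joining, 1 had a fold change above 0 and 5 below, with a median of -0.15, and none passed the test. Without low library 3, 2 lay above and 4 below 0, with a median of -0.12. EIF1B, a close relative of the start codon fidelity factor EIF1, had 43.5, 42.8 and 28.7 CPM in high and 49.9, 40.6 and 56.2 CPM in low libraries. The groups overlapped, and high library 3 was the lowest of the 6. Its log2 fold change was -0.35 (SE 0.20, adjusted p = 0.374). EIF6, which keeps the large subunit from joining too early, had 17.6, 17.2 and 20.3 CPM in high and 19.5, 23.8 and 23.8 CPM in low libraries, a log2 fold change of -0.28 with an SE of 0.15 (adjusted p = 0.337). High library 3 lay above low library 1, so these groups overlapped as well.

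EIF1 itself, which keeps the scanning complex open until a start codon is found, had 895, 831 and 864 CPM in high and 934, 896 and 1018 CPM in low libraries. All high libraries lay below all low ones, but the gap between high library 1 and low library 2 was close to 1 CPM, and the log2 fold change was -0.14 (SE 0.14, adjusted p = 0.618), or -0.08 without low library 3. EIF5B, the GTPase that joins the large subunit, had 99.7, 108 and 93.0 CPM in high and 113, 112 and 111 CPM in low libraries, a log2 fold change of -0.16 with an SE of 0.12 (adjusted p = 0.482). The low values lay close together and above every high value. EIF1AX, which encodes eIF1A on the X chromosome, had 132, 139 and 166 CPM in high and 142, 123 and 152 CPM in low libraries and was the 1 record of the group above 0, at 0.07 (SE 0.15). EIF5, the GTPase activator of eIF2, had 40.1, 43.2 and 40.8 CPM in high and 45.2, 37.5 and 51.8 CPM in low libraries, with a log2 fold change of -0.12 (SE 0.14). Its listed record spanned only 1308 bp and had no RefSeq or Ensembl name in the tables used, so the value may not measure the whole gene.

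Among the 8 records of eIF2, its exchange factor and related factors, 1 had a fold change above 0 and 7 below, with a median of -0.05, and their range of -0.22 to 0.01 was the narrowest of the role groups. EIF2S1, the alpha chain of eIF2 on which the stress kinases act, had 62.4, 55.8 and 61.4 CPM in high and 54.9, 62.6 and 65.3 CPM in low libraries. The groups overlapped, and the log2 fold change was -0.03 (SE 0.12, adjusted p = 0.925). EIF2S2, the beta chain, had 162, 167 and 162 CPM in high and 177, 143 and 188 CPM in low libraries, with a log2 fold change of -0.05 (SE 0.14). The high libraries lay inside the range of the low ones.

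The exchange factor eIF2B, which reloads eIF2 with GTP and is the point at which phosphorylated eIF2 blocks initiation, was covered by 4 of its chains. EIF2B2, the beta chain, had 17.4, 18.2 and 19.5 CPM in high and 23.6, 20.1 and 20.6 CPM in low libraries, a log2 fold change of -0.22 with an SE of 0.13 (adjusted p = 0.402) without overlap between the groups. EIF2B3, the gamma chain, had 14.6, 17.6 and 13.5 CPM in high and 17.4, 16.0 and 19.1 CPM in low libraries, and high library 2 lay above low libraries 1 and 2. Its log2 fold change was -0.20 (SE 0.15, adjusted p = 0.507). EIF2B1, the alpha chain, had 23.2, 19.9 and 26.0 CPM in high and 22.5, 21.8 and 24.3 CPM in low libraries, with a log2 fold change of 0.01 (SE 0.14), and the groups overlapped. EIF2B5, the catalytic epsilon chain, averaged 25.6 ± 1.06 CPM in high and 26.5 ± 0.635 CPM in low (SD, n = 3 each), a log2 fold change of -0.05 (SE 0.11). The chains of this complex thus showed fold changes between -0.22 and 0.01, none beyond the test's threshold. EIF2A and EIF2D, which can deliver initiator tRNA without eIF2, had log2 fold changes of -0.01 (SE 0.13) and -0.05 (SE 0.12).

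eIF3 is the scaffold that holds the small subunit, the other factors and the mRNA together, and 10 of its subunits were measured, 2 with a fold change above 0 and 8 below, median -0.09. EIF3I, a subunit of the WD-repeat kind, had 58.2, 62.2 and 58.0 CPM in high and 73.4, 82.0 and 85.7 CPM in low libraries. The highest high library lay well under the lowest low library. The means were 59.5 ± 2.34 CPM in high and 80.4 ± 6.27 CPM in low (SD, n = 3 each), 1.35-fold lower in high, with a log2 fold change of -0.43 (SE 0.12) and an adjusted p of 0.146 in edgeR's quasi-likelihood test. Its fold change lay between -0.48 and -0.38 when each library was left out in turn. DESeq2 gave an adjusted p of 0.0336, and the adjusted p ran from 0.0336 to 0.352 over the alternative settings with all 6 libraries and each library left out. The record lies on chromosome 6 at 82728285 to 82737483 in the deposited table.

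The remaining subunits had log2 fold changes between -0.21 and 0.03. EIF3A, the largest subunit and core of the complex, had 204, 228 and 181 CPM in high and 216, 195 and 189 CPM in low libraries, a log2 fold change of 0.03 with an SE of 0.14 (adjusted p = 0.928). EIF3M had 67.7, 65.6 and 68.8 CPM in high and 57.9, 65.3 and 76.9 CPM in low libraries, a log2 fold change of 0.01 (SE 0.14). Both records had overlapping groups. Reads of EIF3I per read of EIF3A, a ratio chosen after the values were seen and not tested, were 0.286, 0.273 and 0.321 in high and 0.340, 0.421 and 0.452 in low libraries, which did not overlap. EIF3G, a subunit that binds EIF3I in other species, had 89.3, 92.3 and 89.4 CPM in high and 95.3, 92.3 and 126 CPM in low libraries. High library 2 and low library 2 were all but equal, and the log2 fold change of -0.21 (SE 0.15, adjusted p = 0.469) was -0.05 without low library 3.

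The same library set the low mean of several further eIF3 subunits. EIF3H had 207, 205 and 210.2 CPM in high and 179.5, 180.1 and 277 CPM in low libraries, so the high libraries lay between low library 3 and the other low ones. Its log2 fold change was -0.03 (SE 0.19) with all 6 libraries and 0.21 without low library 3. EIF3E had 170.1, 199 and 210.3 CPM in high and 176, 172 and 269 CPM in low libraries, a log2 fold change of -0.09 (SE 0.20) that was 0.16 without low library 3. EIF3K had 115, 95.4 and 116 CPM in high and 114, 103 and 158 CPM in low libraries, and its log2 fold change was -0.20 (SE 0.19) with low library 3 and 0.01 without it. EIF3D, the subunit that can bind the cap of some mRNAs, had 82.2, 87.6 and 85.6 CPM in high and 81.1, 100.2 and 112 CPM in low libraries, with a log2 fold change of -0.20 (SE 0.15) that was -0.09 without low library 3. EIF3J, the loosely bound subunit, stood at -0.04 (SE 0.16) and EIF3L at -0.08 (SE 0.18), both with overlapping groups. In all, 8 of the 10 subunits had their highest value in low library 3, and without that library 5 lay above and 5 below 0.

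The 9 records of the eIF4 group cover the cap-binding protein, the scaffolds and the helicases, and 2 lay above and 7 below 0 with a median of -0.08. EIF4G3, one of the scaffolds that join the cap-binding protein to the helicase and to eIF3, had 287, 232 and 233 CPM in high and 214, 173 and 204 CPM in low libraries. Every high library lay above every low one. The means were 250.5 ± 31.6 CPM in high and 197 ± 21.0 CPM in low (SD, n = 3 each), 1.27-fold higher in high, with a log2 fold change of 0.35 (SE 0.15) and an adjusted p of 0.284. EIF4G1, its paralog in the same role, had 323, 324 and 299 CPM in high and 345, 336 and 351 CPM in low libraries, again without overlap but with high below low. Its log2 fold change was -0.12 (SE 0.13, adjusted p = 0.609). Leaving out each library in turn moved EIF4G3 between 0.25 and 0.42 and EIF4G1 between -0.15 and -0.09. Reads of EIF4G3 per read of EIF4G1 were 0.890, 0.715 and 0.777 in high and 0.618, 0.516 and 0.581 in low libraries, or 0.794 ± 0.0886 in high and 0.572 ± 0.0516 in low (SD, n = 3 each). The ratio did not overlap between the groups; it was chosen after the values were seen and was not tested. EIF4G2, a related scaffold that lacks the cap-binding protein's docking site, had 1694, 1672 and 1302 CPM in high and 1479, 1473 and 1489.7 CPM in low libraries, a log2 fold change of 0.07 (SE 0.17) with overlapping groups.

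EIF4E, the cap-binding protein itself, was the most variable member of the set by its standard error. It had 208, 165 and 108 CPM in high and 183, 126 and 272 CPM in low libraries. High library 3 was the lowest and low library 3 the highest. The log2 fold change was -0.27 (SE 0.33, adjusted p = 0.671), and it ran from -0.50 to 0.06 with each library left out in turn, the 0.06 being the value without low library 3. EIF4E2, a cap-binding relative that acts in repression, had 16.6, 15.9 and 16.8 CPM in high and 14.9, 18.0 and 16.4 CPM in low libraries, with a log2 fold change of 0.00 (SE 0.13).

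EIF4A1, the helicase that unwinds leaders, had 67.5, 88.6 and 65.04 CPM in high and 64.0, 99.7 and 129.7 CPM in low libraries. Low library 1 was the lowest of the 6 and low library 3 the highest. Its log2 fold change of -0.41 (SE 0.26, adjusted p = 0.419) was -0.15 without low library 3. EIF4A2, the near-identical second form, had 948, 1049.9 and 907 CPM in high and 941, 999 and 1182 CPM in low libraries, a log2 fold change of -0.10 with an SE of 0.16 (adjusted p = 0.740). Both forms had overlapping groups, and reads common to both could be assigned to either. EIF4H, a helper of the helicase, stood at -0.08 (SE 0.12). EIF4B, the other helper, stood at 0.00 (SE 0.15), from a listed record of only 1152 bp that likewise had no RefSeq or Ensembl name, so it too may not measure the whole gene.

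**Figure D2:**
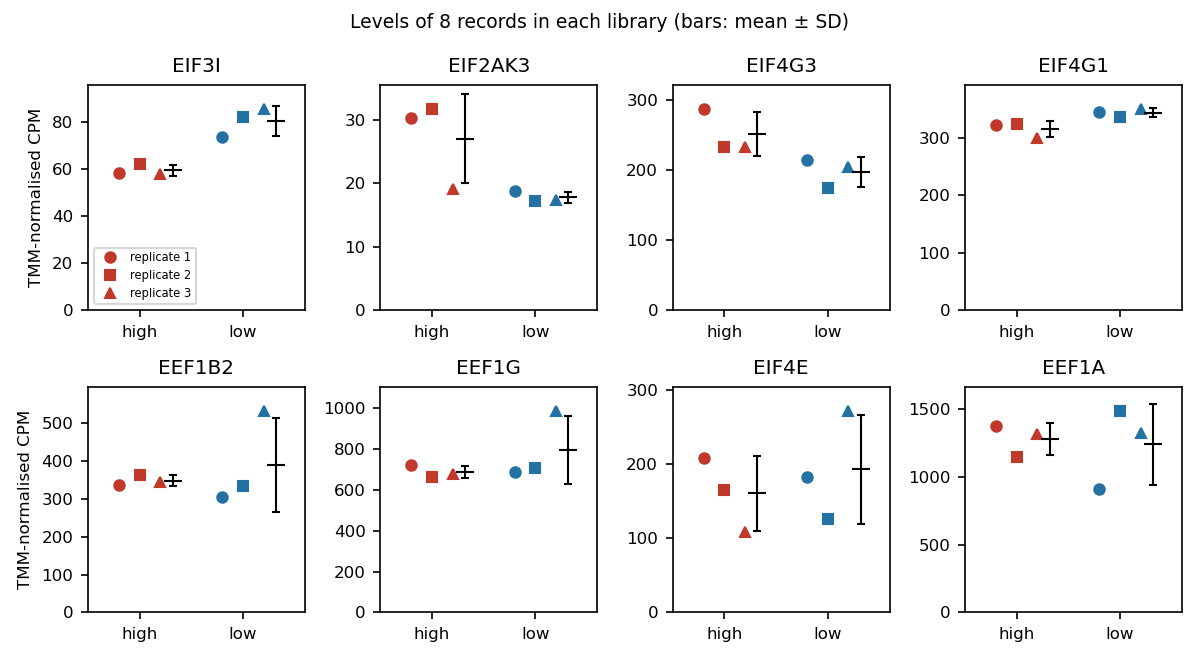
TMM-normalised CPM of 8 records in each library, high on the left and low on the right of each panel, with the marker shape giving the replicate number and bars the mean ± SD. EIF3I, EIF2AK3, EIF4G3 and EIF4G1 do not overlap between the groups, while low library 3 (triangle) carries the highest value for EEF1B2, EEF1G and EIF4E.

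Of the 6 elongation factors, 1 had a fold change above 0 and 5 below, with a median of -0.11, and without low library 3 the median was 0.05. With the table's trend of fold change with genomic span removed, 3 of the 6 lay above 0 and the median was 0.02. EEF1A, for which the RefSeq name table gives EEF1A1, carries aminoacyl-tRNA to the ribosome, and it had 1373, 1147 and 1315 CPM in high and 907, 1486 and 1324 CPM in low libraries. Both extremes of the 6 libraries were in the low group, and the log2 fold change was 0.05 (SE 0.21, adjusted p = 0.924). EEF2, the translocase, had 1606, 1744 and 1859 CPM in high and 1696, 1438 and 2219 CPM in low libraries. The means were 1736 ± 127 CPM in high and 1784 ± 398 CPM in low (SD, n = 3 each), a log2 fold change of -0.04 with an SE of 0.20 (adjusted p = 0.928) that was 0.15 without low library 3. EIF5AL1, for which RefSeq gives EIF5A, the factor that eases the ribosome past difficult peptide bonds, had 250.2, 225 and 229.8 CPM in high and 243, 228 and 267 CPM in low libraries, a log2 fold change of -0.07 (SE 0.13). EEF1A and EIF5A have processed copies in mammalian genomes, so their reads could have been shared with other loci. No record carried the name EEF1A2, so the level of that other eEF1A gene is not known here.

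The eEF1B chains, which exchange the nucleotide on eEF1A, had their highest level in the same library. EEF1B2 had 338, 364 and 344 CPM in high and 305, 334 and 533 CPM in low libraries. EEF1D had 185, 194 and 184 CPM in high and 183, 213 and 296 CPM in low libraries. EEF1G, the structural gamma chain, had 719, 663 and 675 CPM in high and 687, 707 and 986 CPM in low libraries. That library was low library 3, and the other 5 libraries lay close together. Their summed level was 1242, 1221 and 1203 CPM in high and 1174, 1254 and 1814 CPM in low libraries. The log2 fold changes with all 6 libraries were -0.16 for EEF1B2 (SE 0.22), -0.30 for EEF1D (SE 0.19) and -0.21 for EEF1G (SE 0.18), and without low library 3 they were 0.13, -0.07 and -0.02. Reads of EEF1B2 per read of EEF1G ranged over 1.24-fold across the 6 libraries and reads of EEF1D per read of EEF1G over 1.17-fold, against 1.59-fold for EEF1A per EEF1G. EEF1A was lowest in low library 1 and highest in low library 2. These ratios are a description and were not tested.

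The 6 kinases and binding proteins were split evenly, 3 above and 3 below 0, with a median of -0.06. EIF2AK3, the PERK kinase that phosphorylates eIF2 alpha when unfolded proteins collect in the endoplasmic reticulum, had 30.3, 31.7 and 19.03 CPM in high and 18.8, 17.3 and 17.4 CPM in low libraries. High libraries 1 and 2 stood well above the rest, while high library 3 lay just above the highest low library. The means were 27.0 ± 6.96 CPM in high and 17.8 ± 0.857 CPM in low (SD, n = 3 each), 1.52-fold higher in high, a log2 fold change of 0.60 (SE 0.20) with an adjusted p of 0.197. The fold change was 0.80 without high library 3 and at lowest 0.47 with another library left out, and DESeq2 gave an adjusted p of 0.0885. The authors' deposited table gives this record an FDR of 0.180, the lowest of the 50 factors in it. The authors' deposited list holds 134 of the 7661 records, those with an FDR below 0.05 and a log2 fold change of at least 1 in size. None of the 50 factors had a fold change of that size or an FDR below 0.05, so 0 of them are in that list. EIF2AK1, the haem-regulated kinase that acts on the same site, had 12.5, 13.2 and 15.0 CPM in high and 15.5, 16.3 and 14.4 CPM in low libraries, a log2 fold change of -0.18 with an SE of 0.14 (adjusted p = 0.484) with overlapping groups.

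EIF4EBP1, an mTOR-controlled protein that holds eIF4E away from the scaffold, had 25.1, 26.3 and 38.3 CPM in high and 33.5, 24.2 and 45.4 CPM in low libraries. The groups overlapped, and the log2 fold change was -0.20 (SE 0.26, adjusted p = 0.695), or 0.06 without low library 3. EIF4EBP2, the second such protein, had 17.5, 18.7 and 20.6 CPM in high and 17.6, 16.1 and 13.6 CPM in low libraries, a log2 fold change of 0.26 with an SE of 0.15 (adjusted p = 0.377), with high library 1 just under low library 1. Low library 3 held the highest EIF4EBP1 and the lowest EIF4EBP2 of the 6 libraries. Reads of EIF4EBP2 per read of EIF4EBP1 were 0.697, 0.713 and 0.538 in high and 0.526, 0.667 and 0.3002 in low libraries. EIF4ENIF1, which carries eIF4E into the nucleus, had 15.5, 16.8 and 19.97 CPM in high and 18.8, 20.8 and 23.5 CPM in low libraries, with overlapping groups, a log2 fold change of -0.27 with an SE of 0.16 (adjusted p = 0.385). EEF2K, the kinase that inhibits EEF2, had 133, 128 and 139.7 CPM in high and 121, 155 and 108 CPM in low libraries, a log2 fold change of 0.06 with an SE of 0.16 (adjusted p = 0.848). The low libraries spread to both sides of the high ones.

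The name rule also took 5 records whose products do not act in cytosolic initiation or elongation. EIF2C2 and EIF2C4 are the older names of the argonautes AGO2 and AGO4, which carry small RNAs. EIF2C2 had 11.5, 15.2 and 12.3 CPM in high and 9.81, 12.7 and 7.42 CPM in low libraries, a log2 fold change of 0.38 with an SE of 0.22 (adjusted p = 0.392) that was 0.21 without low library 3. EIF2C4 had 79.1, 47.0 and 100.2 CPM in high and 79.7, 98.3 and 86.3 CPM in low libraries, a log2 fold change of -0.22 with an SE of 0.26 (adjusted p = 0.656), and high library 2 lay far under the rest. EIF4A3, a helicase of the exon junction complex, had 20.9, 26.1 and 23.4 CPM in high and 25.4, 31.2 and 27.2 CPM in low libraries, a log2 fold change of -0.25 with an SE of 0.14 (adjusted p = 0.374). EEF1E1, a scaffold of the aminoacyl-tRNA synthetase complex, stood at -0.12 (SE 0.19), and EIF1AD, a protein with an eIF1A-like domain, at -0.02 (SE 0.13). The groups overlapped for all 5.

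Of the 50 members, 28 had their highest level in low library 3, which is 56.0% against 24.9% of the table, and 3 had their lowest level there. Its log2 CPM minus the mean of the other low libraries had a median of 0.18 over the members, with 37 of 50 above 0, against -0.02 over the table, where 48.1% lay above 0. By role the median difference was 0.50 for elongation factors, 0.35 for eIF3, 0.18 for start codon and joining factors, 0.14 for eIF2 and its exchange factor, 0.08 for the eIF4 group, -0.04 for the other roles and -0.10 for the kinases and binding proteins. All 6 elongation factors and 9 of 10 eIF3 subunits lay above 0, against 2 of 6 kinases and binding proteins. The records furthest up were EIF4E at 0.84, EEF1B2 at 0.74, EIF4A1 at 0.70 and EIF4EBP1 at 0.67, and the furthest down was EIF2C2 at -0.58. Further log2 fold changes without low library 3 included -0.23 for EIF1B, -0.13 for EIF2B3, 0.17 for EIF4EBP2 and -0.18 for EIF4ENIF1. They also included 0.15 for EIF1AX, 0.13 for EIF3M and 0.10 for EEF1A. Values that changed direction included 0.01 for EIF5, 0.0027 for EIF4A2, 0.07 for EEF1E1, 0.03 for EIF2S1, 0.04 for EIF2S2 and 0.03 for EIF2A. Also changed in direction were EIF2D and EIF1AD at 0.01, EIF3J at 0.10, EIF4B at 0.12 and EEF2K at -0.04. The same held for EIF4E2 at 0.0023, EIF5AL1 at 0.0032 and EIF3A at -0.0037. The summed level of the 50 records was 11551, 11391 and 11168 CPM in high and 10924, 11184 and 13416 CPM in low libraries, so the other 5 libraries lay between 10924 and 11551 CPM. The labels give no reason for low library 3 to differ, and the animal and its library cannot be told apart.

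**Figure D3:**
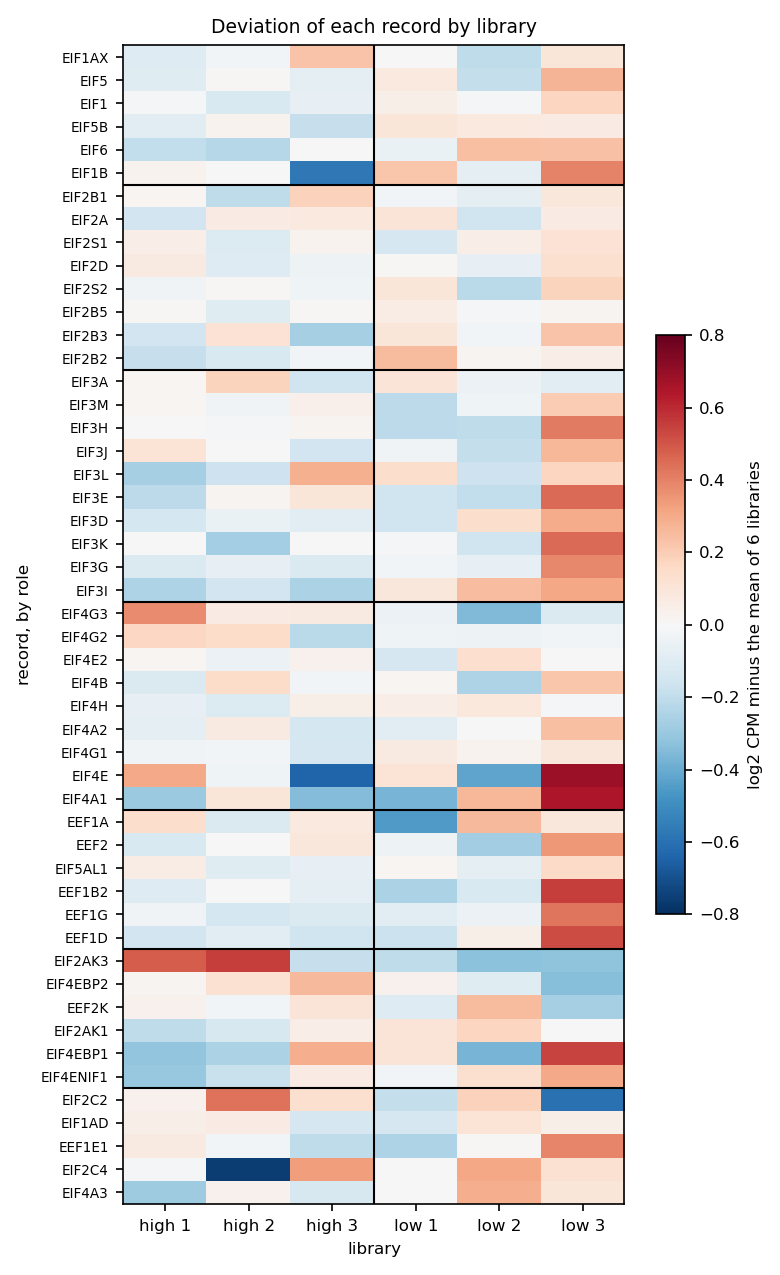
Each cell is a record's log2 CPM minus its mean over the 6 libraries (colour scale), with records in rows by role, high libraries on the left and low libraries on the right. The column of low library 3 is red for most elongation factors and eIF3 subunits, and EIF2AK3 is red in high libraries 1 and 2 and blue in the other 4 libraries.

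**Figure D4:**
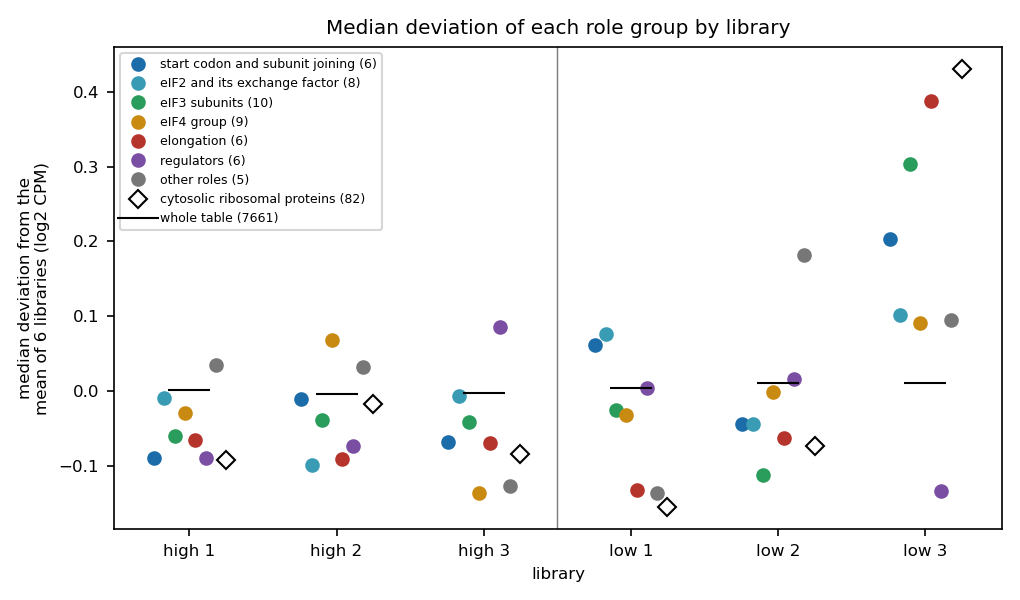
Median deviation from the 6-library mean (log2 CPM, vertical axis) of each role group by library, with the 82 cytosolic ribosomal protein records as diamonds and the whole table as dashes. In low library 3 the elongation factors stand at 0.39, eIF3 at 0.30, the kinases and binding proteins at -0.13 and the ribosomal proteins at 0.43, while the whole table stands at 0.01.

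The ribosomal proteins, which the elongation factors accompany in the same class of mRNAs with a terminal oligopyrimidine tract in mammals, also had their highest level in low library 3. Their summed level was 21751, 22990.4 and 21793 CPM in high and 20661, 21653 and 31460.5 CPM in low libraries. Of 82 records 11 had a fold change above 0 and 71 below with a median of -0.15. Without low library 3, 58 lay above 0 and the median was 0.09. With the table's trend of fold change with genomic span removed, 36 lay above 0 and the median was -0.02. RPL8, a protein of the large subunit, had a log2 fold change of -0.38 with an SE of 0.18 (adjusted p = 0.301) that was -0.18 without low library 3.

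**Figure D5:**
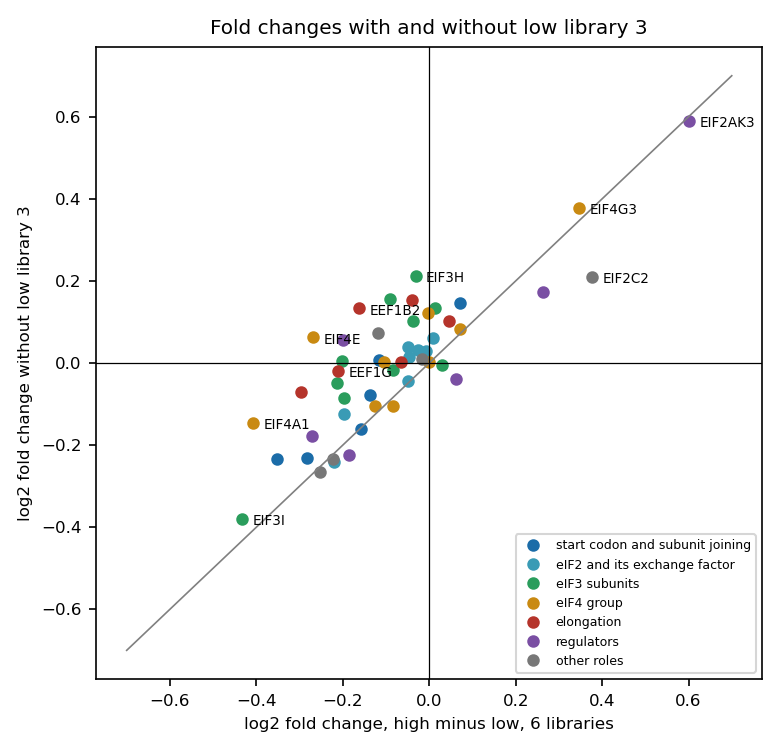
Log2 fold change (high minus low) of the 50 records with all 6 libraries on the horizontal axis and without low library 3 on the vertical axis, coloured by role, with the line of equality. EIF3I, EIF4G3 and EIF2AK3 lie near the line, while EEF1B2, EIF3H and EIF4E lie above it and on the other side of 0 from where they stood with all 6 libraries.

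Fold changes in the table also went with the genomic span of a record, from its listed start to its listed end. Across genes, which are not independent, Spearman's rho of span with fold change was 0.407 over the table and 0.289 without low library 3. Over the 50 members it was 0.261, and 0.125 without low library 3. The deviation of low library 3 from the 6-library mean had a rho with span of -0.417 over the table and -0.306 over the members. Over the table that rho was -0.064 in low library 1 and -0.144 in low library 2. In high libraries 1 to 3 it was 0.230, 0.355 and 0.240, so the sign differed between the groups. The members' spans ran from 1152 bp for EIF4B to 135696 bp for EIF2B3. EIF2AK3 spans 83036 bp and EIF4G3 53823 bp, and with the table's span trend removed their log2 fold changes were 0.41 and 0.21, while that of EIF3I, at 9199 bp, was -0.34. Longer members did not all lie above 0, since EIF2B3 stood at -0.20 and EIF3H, at 120891 bp, at -0.03. With the trend removed, 16 members lay above 0 and the median was -0.07, and all 10 eIF3 subunits lay below 0. What span stands for in these libraries was not tested.

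Beside the factors stand 8 lists of other translation genes, the ribosomal proteins among them, and none of their records passed edgeR's quasi-likelihood test, where 0.144% of the table did. Of 18 cytosolic aminoacyl-tRNA synthetase and partner records, which charge the tRNAs that EEF1A carries, 2 lay above and 16 below 0, with a median of -0.12 that was -0.10 without low library 3 and -0.20 with the span trend removed. AIMP2, a scaffold of their complex, had a log2 fold change of -0.43 with an SE of 0.14 (adjusted p = 0.191). Of 11 start site and helper factors 3 lay above and 8 below 0 (median -0.14), of 7 poly(A)-binding proteins and partners 3 above and 4 below (median 0.00, or -0.16 with the span trend removed), and of 5 release and recycling factors 3 above and 2 below (median 0.05, or -0.02 with none above 0 once the span trend was removed, and 0.09 without low library 3). PABPN1, the nuclear poly(A)-binding protein, stood at -0.39 (SE 0.13, adjusted p = 0.197). Of 6 mitochondrial translation factors 3 lay above and 3 below 0, with a median of -0.05 that was -0.17 without low library 3 and -0.10 with the span trend removed. MTIF2, at -0.47 (SE 0.18), was counted both in this list and among the start site and helper factors. TUFM, the mitochondrial counterpart of EEF1A, had 41.1, 37.9 and 38.7 CPM in high and 50.1, 48.7 and 49.0 CPM in low libraries, without overlap, a log2 fold change of -0.33 with an SE of 0.11 (adjusted p = 0.187).

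Of 15 records listed under the mTOR arm of translation control, 10 lay above and 5 below 0, with a median of 0.11. Without low library 3 the median was 0.05, and with the span trend removed 7 lay above 0 and the median was 0.00. RICTOR, a component of the second mTOR complex, had 48.8, 42.1 and 39.6 CPM in high and 36.9, 23.4 and 21.8 CPM in low libraries, a log2 fold change of 0.67 with an SE of 0.22 (adjusted p = 0.187). AKT1S1, an inhibitory partner of the first mTOR complex, had 33.0, 30.6 and 37.7 CPM in high and 50.2, 44.8 and 46.0 CPM in low libraries, a log2 fold change of -0.48 with an SE of 0.13 (adjusted p = 0.143, and 0.0408 by DESeq2). Neither record's groups overlapped. Of 8 partners of the stress response downstream of the eIF2 kinases 6 lay above and 2 below 0, with a median of 0.11 that was 0.22 without low library 3 and 0.08 with the span trend removed. ATF3, a transcription factor of that response, had 1057, 1079 and 939.9 CPM in high and 240.4, 294 and 847 CPM in low libraries, a log2 fold change of 1.15 with an SE of 0.45 (adjusted p = 0.237). The groups did not overlap, but low library 3 lay close to the high libraries, and without it the log2 fold change was 1.95.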

How the data were processed

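Per the labels' protocols, TRIzol was used to isolate total RNA from fresh muscle, and libraries were built with Illumina's TruSeq kit. Tools named in the submitters' processing notes are TopHat2 2.0.4, BWA 0.6.2 (its role is not stated), Trimmomatic 0.22 and FastQC 0.10.1. The counting program, whether it used strand, the annotation and the build remain not given in the sources used here, so reads from overlapping or near-identical genes could not be told apart. The authors deposited raw counts per record with CPM (counts scaled to a library total of 1000000), log2 fold changes, p-values and FDR values. The CPM values gave the library totals that served as library sizes. Each record exceeded a CPM of 10 in 3 or more libraries. The authors' log2 fold changes are low over high, per the file headers.

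Counts were fitted with edgeR 4.0.16 in R 4.3.3 (TMM factors, quasi-likelihood F-test in either direction, no covariate, Benjamini-Hochberg adjustment over all 7661 records, threshold 0.05). Log2 fold changes are high minus low. The standard error was taken as the size of the log2 fold change over the root of the F statistic. The fit was tested on data simulated with log2 changes of 1 and 2 in size, of which it recovered 76.7% and 98.2%. At the threshold of 0.05, 9.2% of its calls were false, against 17.9% of those of DESeq2. Changes as small as those of the members were not simulated, so recovery at their size is not known. The simulated counts were drawn independently for each record, with no library set apart and no trend with span. The rates in the measured libraries may therefore differ. Nothing in the labels pairs the pigs.

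The members, roles and lists were chosen with earlier results of these data known. Names come from the deposited table. Of the 50 identifiers, 48 had a RefSeq (Sscrofa11.1) or Ensembl name, and 44 had the same one. Members named by rule were, in each role, up to 2 per direction by unadjusted p, and a fixed set of core factors; the remaining members are given for completeness. In each list, records past the threshold and the 2 with the smallest unadjusted p could be named.

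Alternatives were RLE (DESeq2-type) or upper-quartile factors, omitting the filter, a minimum mean CPM of 50, DESeq2 1.42.0, limma-voom (limma 3.58.1), edgeR's exact test, a block for the replicate number, leaving out each library, a threshold of 0.1, removal of the span trend and removal of 35 mitochondrial records. Library sizes from the listed records were added after seeing the data.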

Additional observations from a re-analysis of the deposited data

How the results depend on the processing

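The number of table records called, 11, was 2 with a mean CPM of at least 50, 518 with DESeq2, 340 with the exact test, 77 at a threshold of 0.1 and between 1 (without low library 2) and 30 (without low library 1) with each library left out. It was 16 without low library 3. The replicate number as a block gave 2 table calls and 0 member calls. Same-numbered libraries had deviations that correlated at 0.118, 0.0312 and -0.0815, and 2 of 6 libraries correlated best with their own number, so the numbers were not taken as pairs. Members called were 0 in every other setting and 1 with DESeq2, EIF3I at a log2 fold change of -0.42. The members' median of -0.09 lay between -0.10 and -0.04 under the other settings with all 6 libraries and between -0.14 and 0.0043 with each library left out, the last being without low library 3. The threshold of 0.1 reuses the main fit, and omitting the filter or taking library sizes from the listed records left member values all but unchanged. The counts that follow include these settings, where agreement was fixed or nearly so. Under settings with all 6 libraries, 549 member values kept their direction and call and 31 changed direction, with values between -0.16 and 0.14. With the span trend removed these were EIF2B5 at 0.063, EIF2A at 0.025, EIF3A at -0.064, EIF3M at -0.018, EIF4A2 at 0.020, EIF4B at 0.14, EIF5AL1 at 0.058, EEF2 at 0.053, EIF1AD at 0.12, EEF2K at -0.16 and EIF5 at 0.028. With a mean CPM of at least 50, which gives no value for members under that level, they were EIF2S1 at 0.012, EIF2A at 0.033, EIF3J at 0.0032, EIF3H at 0.014 and EEF2 at 0.0063, and with upper-quartile factors EIF2B1 at -0.012 and EIF3M at -0.0040. EIF2A, EIF4B and EIF4E2 were at 0.0028, 0.0069 and 0.0095 with RLE factors, at 0.0029, 0.0071 and 0.0097 with DESeq2, and at 0.0046, 0.0095 and 0.012 with mitochondrial records removed. EIF4B and EIF4E2 were at 0.0061 and 0.0039 with limma-voom and at 0.0040 and 0.0023 with the replicate block. With each library left out, values of 27 members changed direction at least once. Their ranges were -0.091 to 0.014 for EIF2D, -0.16 to 0.039 for EIF2S2, -0.082 to 0.033 for EIF2S1, -0.088 to 0.10 for EIF2B1, -0.086 to 0.075 for EIF2A, -0.32 to 0.0054 for EIF3K, -0.27 to 0.032 for EIF3L, -0.20 to 0.16 for EIF3E, -0.14 to 0.10 for EIF3J, -0.059 to 0.11 for EIF3A, -0.14 to 0.21 for EIF3H, -0.064 to 0.13 for EIF3M and -0.50 to 0.062 for EIF4E. They were -0.17 to 0.0027 for EIF4A2, -0.12 to 0.12 for EIF4B, -0.052 to 0.069 for EIF4E2, -0.30 to 0.13 for EEF1B2, -0.12 to 0.0032 for EIF5AL1, -0.12 to 0.20 for EEF1A, -0.17 to 0.15 for EEF2, -0.48 to 0.025 for EIF2C4, -0.24 to 0.073 for EEF1E1, -0.070 to 0.046 for EIF1AD, -0.42 to 0.057 for EIF4EBP1, -0.039 to 0.22 for EEF2K, -0.23 to 0.0064 for EIF5 and -0.033 to 0.15 for EIF1AX. The cause of these changes was not tested. The spread between libraries, a biological coefficient of variation of 20.7%, limits what 3 pigs a group can show, and nothing here shows that the members are equal between the groups.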

Other observations

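Records that carry no factor name in the deposited table were not members. RefSeq names 1 of them EIF2S3, the gamma chain of eIF2 that binds the initiator tRNA. It had 63.0, 63.5 and 112 CPM in high and 99.7, 104 and 120.1 CPM in low libraries, and high library 3 lay among the low ones. Its log2 fold change was -0.44 (SE 0.24, adjusted p = 0.352 in edgeR's quasi-likelihood test), and it ran from -0.77 to -0.29 with each library left out in turn. A further record that RefSeq names EIF2S2 had 35.3, 37.8 and 36.9 CPM in high and 40.8, 28.0 and 36.8 CPM in low libraries, a log2 fold change of 0.06 (adjusted p = 0.861). It could share reads with the EIF2S2 member.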
